A study of Mus musculus with 7 samples.

Results

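The genes described here are 38 interferon-stimulated and MHC class I genes, taken by symbol from a list of names, out of 54309 genes in a table of transcript abundance. All 38 were found in the table. RNA was sequenced from 7 samples of mouse dorsal root ganglia, which lie along the spine and house the cell bodies of sensory neurons. Both groups are described as male C57bl/6 mice aged 6 to 8 weeks with an injured sciatic nerve. Lumbar ganglia 4 to 6 were taken 72 h after the injury at Zeitgeber time (ZT, hours from lights on) 20 in 4 samples or at ZT8 in 3 samples. The ganglia were dissociated with enzymes and neurons were enriched on an albumin gradient, so each sample is a bulk mixture of neurons and the cells that came with them. No transgene is named and no uninjured sample was used here, so the data compare 2 clock times after injury and not injured with intact ganglia. The interval between injury and collection is a whole number of days, so the clock time of the injury was that of the collection.

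Interferons are secreted proteins released when cells sense viral or displaced nucleic acid. They bind receptors that switch on the kinases JAK1 and TYK2, which activate transcription factors such as STAT2. STAT2 acts with IRF9 on a promoter element called the ISRE, and a shorter element of interferon-responsive promoters is called GAS. The genes turned on in this way block viral replication, tag or degrade foreign RNA and load peptides onto MHC class I, the surface molecule that shows fragments of cell proteins to T cells. Resting neurons are known for low MHC class I, and injured sensory ganglia also hold glia and immune cells that can carry the same transcripts.

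Promoters are shown first because some of these genes carry a known interferon-response element there. The RefSeq promoter table (build GRCm38.p6) held 27 of the 38 genes. Not matched were Dhx58, Nlrc5, Usp18, Oas2, Mx1, Mx2, Rtp4, Parp14, Ifi27, Iigp1 and Tap2. The 250 bases upstream of each start site were searched on both strands for the ISRE core, which is GAAA, any 2 bases and GAAA again, and for GAS, spelled TTCNNNGAA with N for any base. The ISRE core was present in 13 of the 27 genes (48.1%), against 3.46% of 27025 genes in the promoter table, where a gene with several start sites counted if any of them matched. GAS was present in 6 of the 27 (22.2%) against 8.13%. The 160 bases directly upstream of the start site are printed for 7 of the genes with an ISRE core, 5' to 3' on the strand of the gene, with each ISRE core in capitals and any GAS match left in lower case. They are shown as examples of how the element sits in genes of the ISG15, IFIT, OAS, GTPase and class I groups.

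Isg15, chr4:156200819-156200978, - strand: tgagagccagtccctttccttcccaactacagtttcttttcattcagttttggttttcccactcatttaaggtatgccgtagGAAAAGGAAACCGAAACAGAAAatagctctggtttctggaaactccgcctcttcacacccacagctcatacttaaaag

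Ifit1, chr19:34640729-34640888, + strand: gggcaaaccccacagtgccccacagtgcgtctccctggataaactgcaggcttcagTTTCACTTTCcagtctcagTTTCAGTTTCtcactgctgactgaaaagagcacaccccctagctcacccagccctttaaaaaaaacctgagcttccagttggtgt

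Ifit3, chr19:34583369-34583528, + strand: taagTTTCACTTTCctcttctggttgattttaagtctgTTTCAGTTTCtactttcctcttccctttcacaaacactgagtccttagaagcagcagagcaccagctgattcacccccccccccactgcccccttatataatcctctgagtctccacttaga

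Oas1a, chr5:120907526-120907685, - strand: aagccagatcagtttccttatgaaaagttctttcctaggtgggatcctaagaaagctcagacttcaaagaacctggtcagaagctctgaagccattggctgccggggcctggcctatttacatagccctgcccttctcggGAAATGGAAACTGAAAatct

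Igtp, chr11:58199396-58199555, + strand: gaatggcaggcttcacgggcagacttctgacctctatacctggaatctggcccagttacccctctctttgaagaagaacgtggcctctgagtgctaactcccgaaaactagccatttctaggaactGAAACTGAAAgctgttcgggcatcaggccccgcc

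Gbp2, chr3:142620503-142620662, + strand: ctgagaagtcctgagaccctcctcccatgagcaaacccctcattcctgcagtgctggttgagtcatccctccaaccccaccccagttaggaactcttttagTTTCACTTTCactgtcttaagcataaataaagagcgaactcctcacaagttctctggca

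B2m, chr2:122147527-122147686, + strand: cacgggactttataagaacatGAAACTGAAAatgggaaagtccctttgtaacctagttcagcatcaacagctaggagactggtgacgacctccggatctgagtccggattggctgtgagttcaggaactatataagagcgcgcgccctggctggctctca

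Isg15 held 3 overlapping matches, whose first bases lay 78, 72 and 66 bases upstream of the start. Ifit1 held matches 104 and 85 bases upstream and Ifit3 156 and 122 bases upstream, all on the opposite strand. Oas1a held overlapping matches at 20 and 14 bases, the nearest to a start site among these 13 genes. Igtp carried its ISRE core at 34 bases and a GAS match at 45, Gbp2 an ISRE core at 59 bases and B2m at 139 bases. The other 6 genes with the ISRE core were Gbp3, Gbp7, Bst2, Ifitm2, Rsad2 and Stat2. These matches describe letters only, and no binding was measured.

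**Figure D1:**
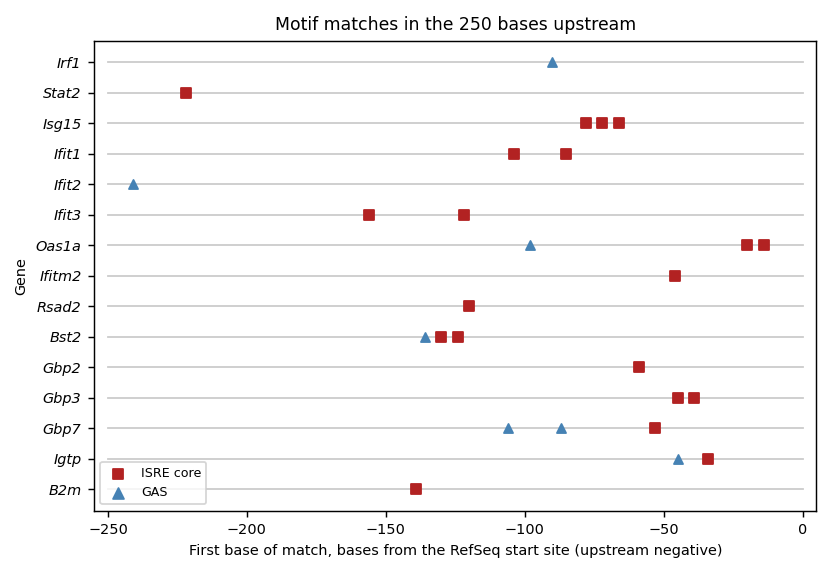
Positions of ISRE core (squares) and GAS (triangles) matches in the 250 bases upstream of the start site; the x axis gives the first base of each match in bases from the start and each line is 1 gene. Most ISRE cores lie within the last 160 bases, and Stat2 at 222 bases is the exception.

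Abundance is given as TPM, a count of transcripts scaled for transcript length and to the same total in each sample, so sequencing depth is unknown and levels of different genes can be compared per length. Differences between groups are on the log2(TPM + 1) scale, ZT20 minus ZT8, fitted with limma over every gene whose mean reached 1 TPM. This scale understates changes of low genes. Of the 38 genes 37 were tested; Oas2 was below the limit, at 0.120 to 0.593 TPM at ZT20 and 0 to 1.36 TPM at ZT8. The tested genes spanned means from 1.57 TPM (Mx1) to 794 TPM (H2-D1). The data are bulk, so fewer cells of a type and less RNA per cell cannot be told apart.

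Some libraries departed from their labels. Y-linked transcripts (Ddx3y, Eif2s3y, Kdm5d and Uty) were at or near 0 in ZT20 replicates 3 and 4, and ZT20 replicates 2, 3 and 4 held Xist at 1.08, 2.21 and 2.30 TPM, although all samples are labelled male. Library identifiers followed one scheme at ZT20 and another at ZT8, so clock time and whatever those schemes record cannot be told apart.

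At ZT20 the interferon-stimulated gene Ifit3 and the small mitochondrial protein gene Ifi27 were lower than at ZT8, and 0 of the 37 genes were higher. With limma's p-values adjusted by Benjamini-Hochberg over 14800 genes and a threshold of 0.05, 2 of 37 were called lower (5.41%), against 3.61% of all tested genes. Among all tested genes 12.8% were called higher. That excess of higher calls depends on scaling: 1899 genes were higher and 534 lower as deposited, 1128 and 1160 under median-ratio scaling and 1023 and 814 under quantile normalization, which moved the median of all genes from 0.23 to 0.033 and 0.0046. The fitted difference was negative for 31 of the 37 (83.8%), against 33.6% of all tested genes. The median difference over the 37 was -0.60, against 0.23 over all tested genes, and the offset between these medians was -0.83. At an unadjusted p under 0.05, 12 of the 37 were lower (32.4%, against 8.61% of all tested genes) and 0 were higher (against 26.0%). All ZT20 samples lay below all ZT8 samples in 3 of the 37 genes (8.11%), Ifi27, Isg15 and Oas1a, against 8.72% of all tested genes. The reverse held in 0 of the 37, against 24.5% of all tested genes. The count called lower moved with single libraries: it was 0 without ZT20 replicate 1, 3 or 4, 1 (Ifi27) without ZT8 replicate 1, 2 (Ifi27 and Ifi35) without ZT8 replicate 3, 5 without ZT20 replicate 2 and 8 without ZT8 replicate 2. The count over all genes moved too: 180, 103 and 134 genes were lower without ZT20 replicate 1, 3 or 4, 472 of 14821 without ZT8 replicate 1, 367 of 14890 without ZT8 replicate 3, 403 of 14770 without ZT20 replicate 2 and 672 of 14821 without ZT8 replicate 2. In the fits with 0 called, the differences were of similar size: without ZT20 replicates 1, 3 and 4 in turn, Ifi27 was at -0.63, -0.56 and -0.55 and Ifit3 at -1.55, -1.85 and -1.55, against -0.60 and -1.74 with all libraries. Without ZT8 replicate 1 the median difference was -0.32, against 0.28 over all genes.

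**Figure D2:**
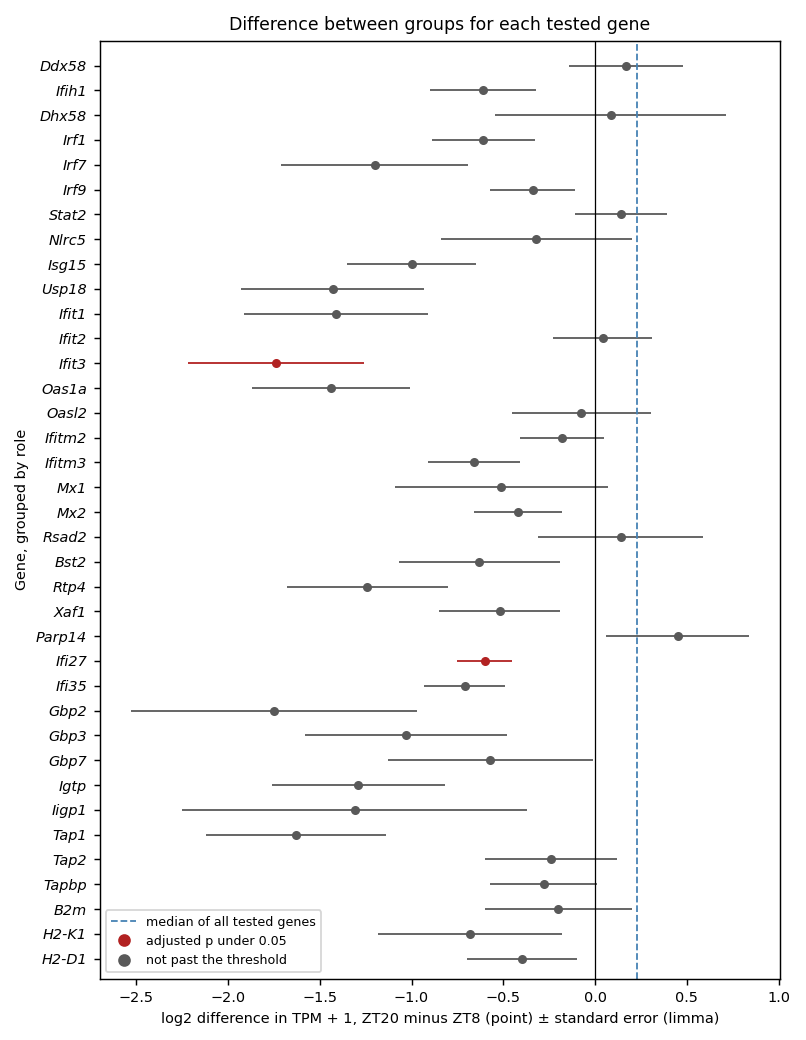
Each point is the log2 difference in TPM + 1 between ZT20 and ZT8 for 1 tested gene, with its limma standard error; red points passed an adjusted p of 0.05 and the dashed line is the median of all tested genes at 0.23. Of the 37 genes, 31 lie left of 0 and only Ifit3 and Ifi27 are red.

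Within each clock time the libraries stood apart in much the same order in most of these genes. ZT8 replicate 1 had the highest value of all 7 samples in 30 of the 37 genes (81.1%), although it was the highest in 10.3% of all tested genes. Within ZT20, replicates 2 and 3 both lay above replicates 1 and 4 in 32 of the 37 genes (86.5%), an order found in 12.7% of all tested genes; this order was noticed after the values were seen and was not tested. The 5 genes outside it were Mx2, Stat2, Ifitm2, Ifi27 and Nlrc5. The median deviation from each gene's mean, in log2 units, was -0.54, 0.19, 0.17 and -0.58 for the 4 ZT20 libraries in order of their numbers and 0.99, -0.21 and 0.30 for the 3 ZT8 libraries. Over all tested genes it stayed between -0.22 and 0.15. ZT8 replicate 2 was the lowest of the 3 ZT8 libraries in 26 of the 37 genes, and it was the lowest of its group in 48.8% of all tested genes. That library also held the fewest detected genes, 18297 against 22541 to 25238 in the others.

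**Figure D3:**
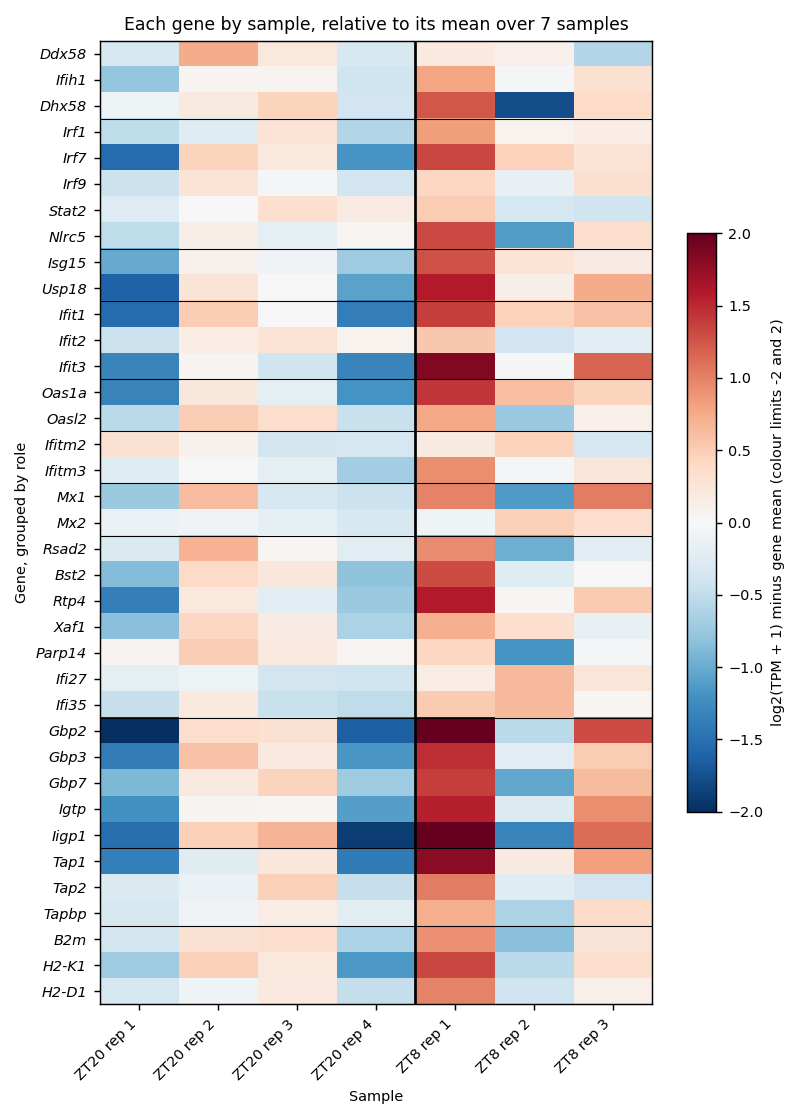
Colour gives log2(TPM + 1) minus the gene's mean over 7 samples, one row per tested gene in the order of the roles in the text and one column per sample. ZT8 replicate 1 is red in most rows, ZT20 replicates 1 and 4 are blue in most rows, and ZT20 replicates 2 and 3 lie between.

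The IFIT genes encode proteins that bind foreign RNA and stop its translation. Ifit3 was at 23.5, 62.4, 45.3 and 23.4 TPM in the 4 ZT20 libraries, in order of their numbers as for every gene, and at 219, 58.5 and 136 TPM in the 3 ZT8 libraries. ZT8 replicates 1 and 3 stood above every ZT20 sample, while ZT8 replicate 2 fell inside the ZT20 range, so the groups overlapped. Its log2 difference was -1.74 (standard error 0.48, limma adjusted p = 0.0418). Ifit3 was not called when ZT20 replicate 1, 3 or 4 or ZT8 replicate 1 or 3 was left out, although its difference was then still -1.85 to -1.31. Ifit1 was at 24.4, 105, 72.5 and 27.6 TPM at ZT20 and at 192, 101 and 110.0 TPM at ZT8. ZT20 replicate 2 lay between ZT8 replicates 2 and 3, and the difference of -1.41 (standard error 0.50) did not pass (limma adjusted p = 0.0871). Ifit2 had mean TPM of 17.4 ± 3.63 (SD, n = 4) and 17.3 ± 6.57 (SD, n = 3), a difference of 0.042 whose sign turned under median-ratio scaling (-0.18), quantile normalization (-0.22) and length correction (-0.28). Within each sample Ifit3 was 1.32 to 3.32 times as abundant as Ifit2 at ZT20 and 4.63 to 9.45 times at ZT8; this ratio was chosen after the values were seen.

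Ifi27, a short mitochondrial and nuclear-envelope protein, had the smallest p of the 37 genes. It was at 488, 515, 427 and 418 TPM across ZT20 and at 609.5, 859 and 649 TPM across ZT8. Every ZT8 library exceeded every ZT20 library, and the spread within ZT20 was 1.23-fold. The log2 difference was -0.60, its standard error 0.15 and its limma adjusted p 0.0283. Ifi27 did not share the order of the libraries seen in most of the other genes: ZT8 replicate 2 was its highest sample and ZT8 replicate 1 its lowest at ZT8. Ifi35, an interferon-induced leucine zipper protein, was at 64.0, 101, 64.3 and 61.9 TPM at ZT20 and at 127, 138 and 90.8 TPM at ZT8. Only ZT20 replicate 2 entered the ZT8 range, and the difference of -0.71 (standard error 0.22) stood just outside the threshold (limma adjusted p = 0.0562).

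**Figure D4:**
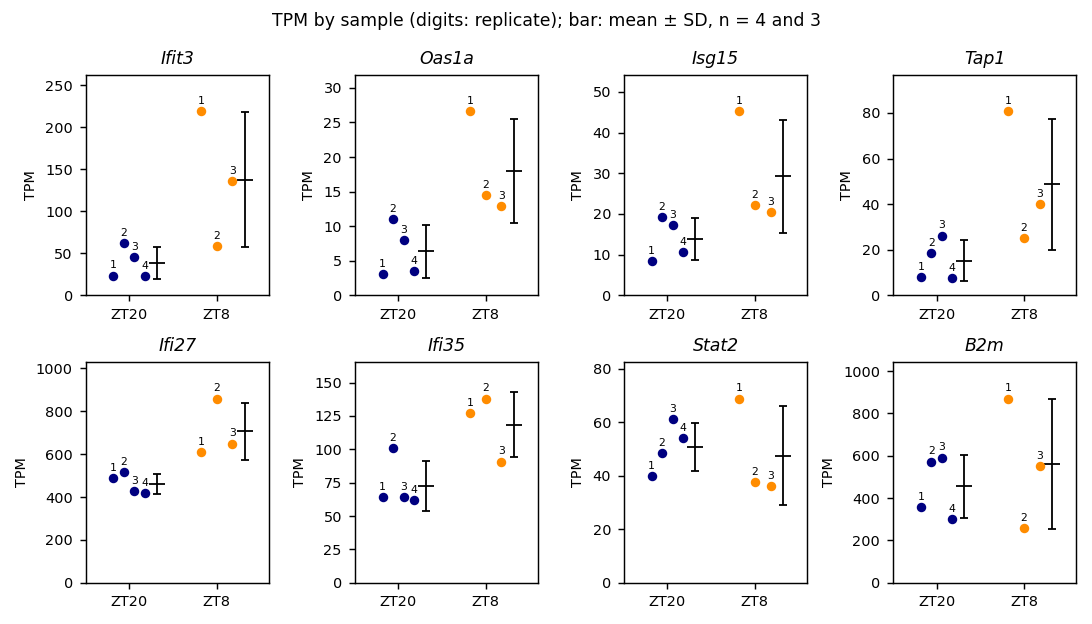
TPM of 8 genes in each sample, with replicate numbers beside the points and bars for the mean ± SD (n = 4 at ZT20, n = 3 at ZT8). Ifi27, Oas1a and Isg15 have groups that do not overlap, while B2m and Stat2 overlap widely.

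Isg15 encodes a ubiquitin-like protein that is attached to other proteins, and Usp18 the enzyme that removes it and dampens the interferon receptor. Isg15 was at 8.51, 19.3, 17.2 and 10.7 TPM across ZT20 and at 45.2, 22.2 and 20.4 TPM across ZT8. The groups did not overlap, though ZT20 replicate 2 came close to ZT8 replicate 3, and the difference of -1.00 (standard error 0.35) did not pass (limma adjusted p = 0.0823). Usp18 was at 7.39, 30.0, 24.6 and 11.3 TPM at ZT20 and at 76.6, 27.1 and 42.2 TPM at ZT8. ZT20 replicate 2 lay above ZT8 replicate 2, and the difference of -1.43 (standard error 0.50) did not pass (limma adjusted p = 0.0814).

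The OAS proteins sense double-stranded RNA and activate an RNA-degrading enzyme. Oas1a was at 3.07, 11.0, 8.02 and 3.48 TPM at ZT20 and at 26.6, 14.5 and 12.9 TPM at ZT8, with no overlap between groups. Its difference of -1.44 (standard error 0.43) missed the threshold narrowly (limma adjusted p = 0.0509). Oasl2, an OAS-like protein and the most abundant of the 3, was at 61.0, 127, 114 and 65.2 TPM at ZT20 and at 153, 52.9 and 95.4 TPM at ZT8. ZT8 replicate 2 was the lowest of all 7 libraries, the groups overlapped widely and the difference was -0.075 (limma adjusted p = 0.905).

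The 3 cytoplasmic RNA sensors are RIG-I, encoded by Ddx58, MDA5, encoded by Ifih1, and LGP2, encoded by Dhx58. Ddx58 was at 9.75, 21.4, 14.5 and 9.70 TPM at ZT20 and at 14.3, 13.4 and 7.93 TPM at ZT8. ZT20 replicate 2 was the highest library, which makes Ddx58 one of 2 genes with their maximum there, and the difference was 0.17 (limma adjusted p = 0.723). Ifih1 had mean TPM of 5.63 ± 1.72 (SD, n = 4) and 9.14 ± 2.95 (SD, n = 3), a difference of -0.61 (limma adjusted p = 0.169). Dhx58 was at 1.62 to 3.67 TPM at ZT20, at 7.09 and 3.44 TPM in ZT8 replicates 1 and 3 and listed at 0 in ZT8 replicate 2, and its fitted difference of 0.085 was opposite in sign to the difference of its means. The positive signs of Ddx58 and Dhx58 turned negative under median-ratio scaling (-0.041 and -0.034), quantile normalization (-0.13 and -0.37) and length correction (-0.16 and -0.022).

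Among the transcription regulators, Irf7 is the factor that amplifies interferon production. It ranged from 5.85 to 26.0 TPM at ZT20 and from 22.9 to 48.9 TPM at ZT8. Its 4.44-fold spread within ZT20 was wider than the ratio of the group means, 15.4 ± 10.1 (SD, n = 4) to 32.7 ± 14.1 TPM (SD, n = 3), and the difference of -1.20 did not pass (limma adjusted p = 0.133). Stat2, the most abundant of these regulators, was at 40.0, 48.5, 61.2 and 54.1 TPM at ZT20 and at 68.9, 37.6 and 36.2 TPM at ZT8. The ZT8 libraries lay on both sides of the ZT20 range, and the difference of 0.14 did not pass (limma adjusted p = 0.706). Its sign turned under median-ratio scaling (-0.085) and length correction (-0.27). Irf9, the DNA-binding partner of STAT2, and Irf1, an activator of class I genes, had differences of -0.34 (limma adjusted p = 0.315) and -0.61 (limma adjusted p = 0.153). Nlrc5, the activator dedicated to MHC class I genes, was at 0.771 to 1.72 TPM at ZT20 and at 5.27, 0.159 and 2.21 TPM in ZT8 replicates 1 to 3. ZT8 alone spanned 33.2-fold for Nlrc5, and the difference of -0.32 did not pass (limma adjusted p = 0.689).

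The guanylate-binding proteins and the immunity-related GTPases attack the membranes around intracellular microbes, and their values ranged widely among libraries of 1 group. Gbp2 was at 9.01, 50.9, 49.3 and 12.2 TPM at ZT20 and at 192, 26.9 and 99.6 TPM at ZT8. The 5.65-fold range within ZT20 and the 7.14-fold range within ZT8 left a difference of -1.75 (standard error 0.78) short of the threshold (limma adjusted p = 0.149). Igtp, the most abundant of the 5, was at 56.2, 137, 136 and 61.0 TPM at ZT20 and at 389, 109 and 251 TPM at ZT8, a difference of -1.29 (limma adjusted p = 0.0941). ZT8 replicate 2 lay below ZT20 replicates 2 and 3 in both genes. Iigp1 ranged from 5.91 to 40.5 TPM at ZT20 and from 9.29 to 140.0 TPM at ZT8, a 15.1-fold range within ZT8. Gbp3 and Gbp7 had differences of -1.03 and -0.57 (limma adjusted p = 0.218 and 0.495). None of these 5 genes passed at the adjusted threshold by limma, and 1, Igtp, had an unadjusted p under 0.05.

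IFITM proteins hinder the entry of viruses through membranes. Ifitm3 was at 99.9, 118, 105 and 72.5 TPM at ZT20 and at 226, 116 and 140.3 TPM at ZT8. Only ZT8 replicate 2 fell inside the ZT20 range, and the difference of -0.66 did not pass (limma adjusted p = 0.0967). Its neighbour Ifitm2 was at 129, 111, 80.1 and 82.4 TPM at ZT20 and at 118, 143 and 82.6 TPM at ZT8. The groups overlapped almost completely and the difference was -0.18 (limma adjusted p = 0.610). Ifitm2 and Ifitm3 are close relatives, as are Gbp2, Gbp3 and Gbp7, Ifit1, Ifit2 and Ifit3, Oas1a and Oas2, and H2-K1 and H2-D1, so the split of reads within each family is uncertain.

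Of the remaining effectors, Rtp4, a chaperone induced by interferon, was at 9.55 to 30.8 TPM at ZT20 and at 80.8, 26.9 and 38.3 TPM at ZT8, a difference of -1.24 (limma adjusted p = 0.0861). Bst2, or tetherin, which holds budding virus at the cell surface, was at 17.6, 43.4, 38.7 and 18.5 TPM at ZT20 and at 83.5, 27.9 and 33.4 TPM at ZT8. The Bst2 difference of -0.63 (limma adjusted p = 0.337) was smaller than the 2.47-fold range within ZT20. Xaf1, a pro-apoptotic factor, had mean TPM of 43.7 ± 18.1 (SD, n = 4) and 60.8 ± 17.9 (SD, n = 3). Rsad2, or viperin, and Parp14, an ADP-ribosyltransferase, were low, with group means between 1.27 and 4.38 TPM, and had fitted differences of 0.14 and 0.45 (limma adjusted p = 0.849 and 0.432). For Rsad2 the sign was opposite to that of its means, which were 4.30 ± 1.79 (SD, n = 4) and 4.38 ± 3.59 TPM (SD, n = 3) for ZT20 and ZT8. Both signs turned under quantile normalization (-0.20 and -0.074) and length correction (-0.25 and -0.17). The Mx genes encode antiviral GTPases, and Mx1 and Mx2 were near the lower limit of the test. Mx2 was at 1.81, 1.96, 1.69 and 1.48 TPM at ZT20 and at 1.91, 3.31 and 2.89 TPM at ZT8, with ZT8 replicate 1 inside the ZT20 range and a difference of -0.42 (limma adjusted p = 0.251), and Mx1 was listed at 0 in ZT8 replicate 2.

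The MHC class I molecule consists of a heavy chain, such as H2-K1 or H2-D1, and the light chain beta-2-microglobulin, encoded by B2m. H2-D1 was at 595, 707, 858 and 539.7 TPM across ZT20 and at 1487, 566 and 802 TPM across ZT8. B2m was at 358, 572, 591 and 299.6 TPM at ZT20 and at 869.9, 259.6 and 553 TPM at ZT8. ZT8 replicate 1 was the highest and ZT8 replicate 2 among the 3 lowest libraries for both genes, so the ZT8 range enclosed nearly the whole ZT20 range. H2-K1 was at 88.1, 200.1, 168 and 64.8 TPM at ZT20 and at 366, 99.4 and 185 TPM at ZT8, again with ZT8 replicate 1 highest and ZT8 replicate 2 among the 3 lowest. The differences of H2-D1, B2m and H2-K1 were -0.40, -0.20 and -0.68, and limma gave adjusted p-values of 0.376, 0.757 and 0.359. The B2m difference was 0.20 without ZT8 replicate 1.

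TAP1 and TAP2 form the transporter that carries peptides to class I molecules, and tapasin, encoded by Tapbp, bridges the transporter and the class I molecule. Tap1 was at 8.08, 18.7, 26.2 and 7.71 TPM at ZT20 and at 80.7, 25.3 and 40.2 TPM at ZT8. Only ZT20 replicate 3 passed the lowest ZT8 sample, and the difference of -1.63 (standard error 0.49) stood just outside the threshold (limma adjusted p = 0.0553). Tap2 was at 33.0, 37.2, 57.1 and 29.3 TPM at ZT20 and at 84.1, 34.4 and 30.9 TPM at ZT8, a difference of -0.24 (limma adjusted p = 0.669). The ratio of Tap1 to Tap2 was 0.245 to 0.503 in the ZT20 libraries and 0.959, 0.736 and 1.30 in the ZT8 libraries, without overlap; it was chosen after the values were seen and was not tested. Tapbp, the most abundant of the 3, was at 138, 163, 191 and 146 TPM at ZT20 and at 284, 111 and 224 TPM at ZT8. Its range at ZT8 enclosed the ZT20 range, and the difference was -0.28 (limma adjusted p = 0.521). Exons of Tap1 overlap Psmb9 on the opposite strand, those of Igtp overlap Irgm2 and those of Irf9 overlap Rnf31 in GENCODE M21, as is the case with some other gene for 16 of the 38, and use of strand in counting is not given in the sources used here.

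The other genes of the pathway, a list of 100, gave 83 tested genes. By limma, 10 of them were called lower at ZT20 (12.0%, against 3.61% of all tested genes) and 5 higher (against 12.8% of all tested genes). Their median difference was -0.10, against 0.23 over all tested genes. The interferons themselves were at or near 0: of 10 ligand genes, 0 reached a mean of 1 TPM, and Ifng, the interferon of T and NK cells, had the highest single value at 0.908 TPM in ZT8 replicate 1. Ifnar1 and Ifnar2, the receptor chains for interferon alpha and beta, had means of 24.3 and 21.2 TPM at ZT20 and 20.6 and 24.4 TPM at ZT8, and neither passed (limma adjusted p = 0.413 and 0.481). Ifngr1 and Ifngr2, the receptor chains for interferon gamma, had means of 45.4 and 115 TPM at ZT20 and 49.2 and 103 TPM at ZT8, again without passing (limma adjusted p = 0.638 and 0.410). Il10rb, a chain shared by the receptors for interferon lambda and interleukin 10, had means of 81.6 and 80.7 TPM (limma adjusted p = 0.931). Ifnlr1, the other chain for interferon lambda, was below the limit for testing, at 0.392 to 0.631 TPM at ZT20 and 0 to 0.305 TPM at ZT8, without overlap.

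The pathway genes called lower were 6 of 34 other interferon-stimulated genes and 4 of 19 other class I presentation genes. Ifi47, an immunity-related GTPase, was at 7.33, 32.9, 32.3 and 7.39 TPM at ZT20 and at 177, 46.8 and 93.5 TPM at ZT8, a difference of -2.47 (limma adjusted p = 0.0341). Psmb8, a catalytic subunit of the immunoproteasome that cuts peptides for class I, was at 55.3, 120.1, 108 and 41.1 TPM at ZT20 and at 373, 166 and 194 TPM at ZT8, a difference of -1.62 (limma adjusted p = 0.0330). Both genes had all ZT20 libraries below all ZT8 libraries and, within ZT20, replicates 2 and 3 above replicates 1 and 4. Ifit3b, a close copy of Ifit3, and Ifi27l2a, a relative of Ifi27, differed by -1.61 and -1.88 (limma adjusted p = 0.0217 and 0.0431). The split of reads between Ifit3 and Ifit3b is uncertain, so their calls are not independent results. The 5 genes called higher included the receptor kinase Jak1, at 155 to 213 TPM at ZT20 and 93.9 to 128 TPM at ZT8, and Tbk1, the kinase that activates IRF3, at 49.7 to 50.4 TPM and 12.9 to 24.7 TPM. The others were Ptpn11, a phosphatase, Canx, a chaperone of class I heavy chains, and H2-T24, a nonclassical class I gene. H2-T24 was at 7.55 to 9.15 TPM at ZT20 and at 1.62 to 2.98 TPM at ZT8, a difference of 1.53 (limma adjusted p = 0.00588). All ZT20 libraries lay above all ZT8 libraries in these 5 genes. After length correction only H2-T24 and Tbk1 of these 5 were called higher, against 487 of 14745 genes. The pathway counts also moved with single libraries, as did those over all genes. The pathway count called lower was 2 without ZT20 replicate 1 (180 of 14767 over all genes) or replicate 4 (134 of 14777). It was 4 without ZT20 replicate 3 (103 of 14760). Without ZT8 replicate 1 the pathway had 2 genes called lower and 10 higher, against 472 and 1871 of 14821 genes.

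The interferon-stimulated and class I genes with an ISRE core upstream (13 tested) had a median difference of -1.00, and those matched without one (14 tested) -0.56. With a GAS match the median was -0.62 (6 tested) and without one -0.61 (21 tested). At an unadjusted limma p under 0.05 were 5 genes with and 4 without the ISRE core, and 2 with and 7 without GAS. All of these were lower at ZT20, against 8.61% of all tested genes lower at that p and 34.6% in either direction. These values are a description of letters beside differences, without a test. The median length of the longest transcript of the 37 tested genes was 2597 nt, against 3108 nt over all tested genes, and the difference over all genes depended on length. Among genes under 1500 nt the median difference was -0.63 for 7 interferon and class I genes and -0.093 for all genes. Between 1500 and 3000 nt it was -1.03 (15 genes) and 0.058, and from 3000 nt upward -0.32 (15 genes) and 0.44. After each sample's trend with length was removed, all 37 differences were negative, their median was -0.67, against -0.0027 over all genes, and 3 genes were called lower, Ifi27, Tap1 and Ifih1, against 720 of 14745 genes. Ifit3 was then at -1.73 and not called (limma adjusted p = 0.0551).

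Markers of other cells were read in the same libraries. All 12 listed neuronal markers were tested, 3 were called higher and 0 lower at ZT20 with a median difference of 0.34, and their summed levels were 18029 to 23159 TPM at ZT20 and 13923 to 21548 TPM at ZT8, so neuronal transcripts were abundant in each sample. The 5 genes of MHC class II presenting cells summed to 434, 1317, 1275 and 648 TPM in ZT20 replicates 1 to 4 and to 4369, 1059 and 1389 TPM in ZT8 replicates 1 to 3. Immunoglobulin genes held 0.0718%, 0.702%, 0.6% and 0.0227% of all TPM at ZT20, 2.71% in ZT8 replicate 1 and at most 1.44% in the other ZT8 libraries. Both measures had ZT8 replicate 1 at the top and ZT20 replicates 1 and 4 at the bottom, the order seen in most interferon-stimulated genes, and none of the 5 class II genes passed the adjusted test by limma. T and NK cell markers, 8 of 9 tested and 1 called lower, summed to 9.25 to 52.0 TPM at ZT20 and 27.6 to 98.8 TPM at ZT8. Plasma cell markers, 4 of 5 tested and 1 called lower, summed to 267 to 485 TPM at ZT20 and 496 to 933 TPM at ZT8. Jchain (4.18 to 176 and 195 to 560.4 TPM) and Mzb1 (0 to 9.28 and 17.9 to 44.2 TPM) were lower at ZT20 without overlap. The ranges of Xbp1, Sdc1 and Prdm1 overlapped. Satellite glia markers, 7 of 7 tested and 3 called lower, summed to 7493 to 9157 TPM at ZT20 and 12764 to 15483 TPM at ZT8.

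Macrophage markers, 14 of 14 tested with 1 called lower and 1 higher, summed to 437 to 875 TPM at ZT20 and 432 to 1016 TPM at ZT8. B cell markers, 2 of 5 tested and 0 called by limma, summed to 3.59 to 8.71 TPM at ZT20 and 5.66 to 11.5 TPM at ZT8, and plasmacytoid dendritic cell markers, 3 of 6 tested and 0 called by limma, summed to 56.9 to 82.4 TPM at ZT20 and 48.5 to 136 TPM at ZT8 with a median difference of -0.63. That list also holds Bst2, itself one of the 38 genes, and Irf8, which is in the pathway list. Siglech, its defining marker, was at 0 to 0.698 TPM over all 7 libraries and Irf8 at 3.81 to 9.99 TPM at ZT20 and 6.61 to 19.6 TPM at ZT8. Neutrophil markers ran the other way, with 2 of 5 called higher and 350.0 to 2201 TPM at ZT20 against 43.8 to 425 TPM at ZT8. Erythroid genes, 5 of 5 tested and 0 called by limma, summed to 2369 to 6679 TPM at ZT20 and 951 to 9534 TPM at ZT8, with the top value in ZT8 replicate 2. Schwann cell markers (6 of 6 tested, 0 called) summed to 1121 to 1254 TPM at ZT20 and 903 to 1296 TPM at ZT8, and fibroblast markers (5 of 6 tested, 0 called) to 82.7 to 119.6 TPM and 89.9 to 207 TPM. Endothelial markers, 2 of 7 tested and 1 called lower, summed to 101 to 117 TPM at ZT20 and 133 to 191 TPM at ZT8. Nearly all of that sum was Egfl7, at 97.3 to 112 TPM and 132 to 188 TPM. Cdh5 (0.376 to 0.475 and 0 to 0.243 TPM) and Tek (0.335 to 0.874 and 0 to 0.294 TPM) were higher at ZT20 without overlap. The ranges of Pecam1, Kdr, Cldn5 and Flt1 overlapped. The part of these cells in the interferon and class I values was not tested. With immunoglobulin and mitochondrially encoded genes removed and TPM rescaled, 4 of 37 genes were called lower, Ifi27, Ifit3, Oas1a and Tap1, against 556 of 14720 genes.

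**Figure D5:**
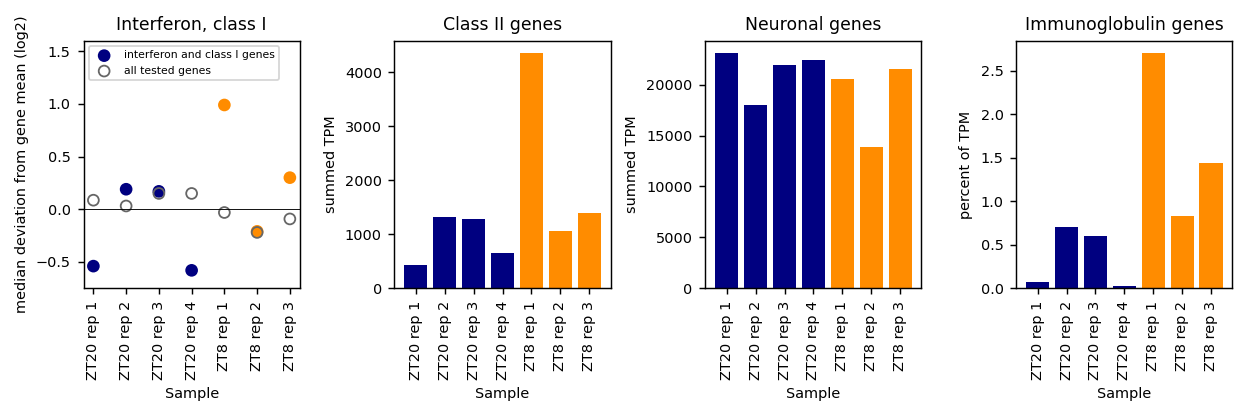
Per sample, from left: median log2 deviation from the gene mean for the 37 interferon and class I genes (filled) and all tested genes (open), summed TPM of 5 MHC class II genes, summed TPM of 12 neuronal markers, and percent of TPM in immunoglobulin genes; blue is ZT20 and orange ZT8. ZT8 replicate 1 leads the first, second and last panels, where ZT20 replicates 1 and 4 are lowest of ZT20.

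With the Y-linked level of each library as a covariate, 0 of the 37 genes were called. At an unadjusted limma p under 0.05 were 8 of the 37, all lower, against 3085 of 14800 genes in either direction. Ifi27 was then at -0.43 (limma adjusted p = 0.177) and Ifit3 at -1.86 (limma adjusted p = 0.156). Without ZT20 replicates 3 and 4 the median difference of the 37 genes was -0.50, 32 were negative and 0 were called. At an unadjusted limma p under 0.05 were 5 of the 37, all lower, against 2378 of all genes in either direction. How many of all genes were lower at that p was not counted in these fits. With ZT20 replicate 1 as the only ZT20 sample the median difference of the 37 genes was -0.86, against 0.20 over all genes. Of the 37, 35 were negative, against 36.6% of all genes.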

How the data were processed

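RNA of 7 neuron-enriched ganglion samples was sequenced after low-input library preparation, per the labels' protocols. The authors deposited TPM per gene, 1 column per sample. The submitters' processing notes name FastQC 0.11.9, Trim Galore 0.6.6, Salmon 1.6.0, DESeq2 1.34.0 and the build GRCm39, without roles; the annotation release is not given in the sources used here. TPM keeps no depth, so counting error is unknown. Groups came from sample titles, and 0 columns were left unused. Nothing states that replicates are separate animals, so p-values measure the spread between these samples, which may be technical.

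Values were analysed as log2(TPM + 1) for the 14800 genes averaging 1 TPM or more, with limma 3.58.1 (R 4.3.3; lmFit and eBayes with an intensity trend), two-sided, adjusted by Benjamini-Hochberg, in all 7 samples without covariates. On simulated data for 14800 genes (20 draws), 33.9% of 200 genes changed by 1 on the log2 scale and 92.0% of those changed by 2 were called. The genes and lists were chosen with earlier results of these data known. All 38 genes are accounted for. Values by sample are given for genes past the threshold, genes without overlap and the most abundant gene of each role. They are also given for other genes, chosen after their values were seen. Some of those lay near the threshold and some far from it, such as B2m, H2-K1, Ifitm2, Tap2, Bst2 and Gbp2. The pathway rule names the interferon receptors and the 5 called genes with the largest differences; Jak1, Tbk1, Ptpn11 and Canx were added because only 5 were called higher; a gene the rule also named is not reported here. GENCODE M21 gave lengths and exon overlaps (51484 genes matched by identifier), and length was known for 99.6% of tested genes (loess, span 0.3). Promoters came from RefSeq GRCm38.p6; protein sequences were not used here. Figures used matplotlib 3.10.9.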

Additional observations from a re-analysis of the deposited data

Results flagged for a closer look

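Among the 4 ZT20 samples, 1 of 38 genes had a sample far from the other 3, where the gap to its nearest neighbour took more than the 95% critical share of the group's range. Chance alone gives about 1 in 20, or 1.90 of 38. The gene was Ifi35: ZT20 replicate 2 measured 101 TPM, while the remaining ZT20 libraries spanned 61.9 to 64.3 TPM, so the gap took a share of 0.941. Without ZT20 replicate 2, Ifi35 was called lower at ZT20.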

How the results depend on the processing

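In all 20 alternatives the median difference of the interferon and class I genes was negative and 0 genes were called higher, with 0 also at an unadjusted limma p under 0.05. The count called lower, 2 by the reported fit, was 0 without a filter, with the replicate block, with the Y-linked score as covariate, without the intensity trend and without ZT20 replicates 3 and 4. In that order, 11, 5, 8, 12 and 5 were lower at an unadjusted limma p under 0.05. Over all genes, 6432, 4346, 3085, 5003 and 2378 had such a p in either direction. The count called lower was 5 with a filter at 5 TPM (590 of 10268 genes in all), 7 under median-ratio scaling (1160 of 14800), 6 under quantile normalization (814 of 14800), 4 without immunoglobulin and mitochondrial genes (556 of 14720) and 11 with array weights (917 of 14800), against 534 of 14800 in the reported fit. Leaving out 1 replicate gave 0 to 8 called, a median of -0.81 to -0.32, 4 to 10 pathway genes higher and 2 to 12 lower, and over all genes 620 to 2375 higher and 103 to 672 lower. The fit without ZT20 replicates 2 to 4 was chosen after seeing the data; ZT20 is then 1 sample, assumed to vary like ZT8. For each change the cause was not tested.

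Over all genes the reported 1899 higher and 534 lower became 978 and 200 without a filter, 1128 and 1160 under median-ratio scaling, 1023 and 814 under quantile normalization, 284 and 29 with the Y-linked score, 2982 and 917 with array weights, and 0 and 0 without ZT20 replicates 3 and 4 or 2 to 4, where 2378 and 1155 genes, respectively and in either direction, had an unadjusted limma p under 0.05. With length correction 487 were higher, and without the trend 332 lower. Pathway genes higher, 5 as reported, were 2 with length correction, 1 with the Y-linked score, 8 with array weights and 0 without ZT20 replicates 3 and 4 or 2 to 4. Pathway genes lower, 10 as reported, were 2 without a filter and 0 with the Y-linked score or without those replicates.

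The replicate numbers occur in both groups but nothing says that they pair samples. Deviations of same-numbered samples correlated at -0.0141, 0.153 and 0.0830 across genes, and ZT8 replicate 1 correlated best with ZT20 replicate 3 (0.150). With the replicate number as a block, where ZT20 replicate 4 adds nothing to the difference, 891 genes were higher and 283 lower, 0 interferon and class I genes and 2 pathway genes were lower, and Oasl2 was at 0.063.

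Signs turned in 52 of 734 refits, over 12 genes, none of them called in the reported fit; Tapbp was called without ZT8 replicate 2. Under median-ratio scaling, Ddx58 was at -0.041, Dhx58 -0.034, Ifit2 -0.18, Rsad2 -0.033 and Stat2 -0.085. Under quantile normalization, Ddx58 was at -0.13, Dhx58 -0.37, Ifit2 -0.22, Parp14 -0.074 and Rsad2 -0.20. With length correction, Ddx58 was at -0.16, Dhx58 -0.022, Ifit2 -0.28, Parp14 -0.17, Rsad2 -0.25 and Stat2 -0.27. With the Y-linked score, Dhx58 was at -0.18, Ifit2 -0.23, Ifitm2 0.17 and Stat2 -0.13, and with array weights Dhx58 -0.59, Ifit2 -0.074 and Rsad2 -0.38. Without ZT20 replicates 3 and 4, Ifit2 was at -0.12, Ifitm2 0.10 and Stat2 -0.046. Without ZT20 replicates 2 to 4, Ddx58 was at -0.22, Dhx58 -0.048, Ifit2 -0.41, Ifitm2 0.20, Rsad2 -0.21 and Stat2 -0.18. Leaving out 1 replicate gave B2m -0.67 to 0.20, Ddx58 -0.072 to 0.32, Dhx58 -0.78 to 0.73, Ifit2 -0.14 to 0.32, Nlrc5 -0.97 to 0.25, Oasl2 -0.47 to 0.29, Parp14 -0.0041 to 0.79, Rsad2 -0.31 to 0.65, Stat2 -0.017 to 0.44, Tap2 -0.50 to 0.21 and Tapbp -0.67 to 0.0033.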
